A study of Rattus norvegicus with 56 samples.

Results

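Fatty acids are built in the cytosol from acetyl-CoA, which is carried out of mitochondria as citrate. The genes described are the 6 that encode the carbon route of that synthesis: the citrate carrier Slc25a1, the cleaving enzyme Acly, the acetate-activating enzyme Acss2, the acetyl-CoA carboxylases Acaca and Acacb, and the fatty acid synthase Fasn. They were taken by gene symbol, and every probe set that carries 1 of these symbols was kept, which gave 8 of the 15866 probe sets measured, or 6 of 10411 named genes. Acaca and Fasn have 2 probe sets each and the other 4 genes have 1 each. The rule that picks the probe sets uses symbols and no measured value. The 6 genes themselves were chosen with earlier results of these data known, so their places among all probe sets are descriptive.

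The route works in steps. Citrate made by the mitochondrial citrate cycle leaves through the carrier, ATP citrate lyase splits it into acetyl-CoA and oxaloacetate, and acetate is a second source through acetyl-CoA synthetase. Acetyl-CoA carboxylase adds carbon dioxide with the help of biotin to give malonyl-CoA, and fatty acid synthase extends acetyl-CoA with malonyl-CoA to palmitate, using NADPH. In the mammary gland the route is known from fat cells of the fat pad and, in lactation, from the secretory epithelium.

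The tissue was the mammary gland of female rats of the inbred Wistar Furth strain. In 12 rats, called treated below, the labels record RXR treatment. They do not expand RXR, which commonly stands for a nuclear receptor, the retinoid X receptor, and give no compound, dose, duration or age. Another 12 rats were controls, and both groups shared strain, sex and tissue, with no genetic alteration named. Each rat had an array of its own, and targets of the same rats were also joined into 6 treated and 6 control pools of 2, 4 treated and 4 control pools of 3, and 1 treated and 1 control pool of 12 that was hybridised on 4 arrays. Rat 3 of each group had 2 further arrays. By the labels 6 treated rats were in diestrus and 6 outside it, in proestrus or estrus, against 9 control rats in diestrus and 3 outside it. The rats are separate animals, while the pools hold the same animals again and are not independent of them.

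The deposited values are on a log2 scale, as inferred from their range, so that a difference of 1 is a doubling, and array medians lay between 7.40 and 7.48 over 56 arrays. The number of arrays limits the precision. Control pool of 12 replicate 4 stood apart. After the mean of the individual rats was subtracted, it correlated with replicate 1 of the same mixture at r = 0.0801, against 0.789 and 0.763 for the other arrays of that pool. These correlations run across genes, and genes are not replicates. The label of the tissue was checked against lists of marker genes. The epithelial adhesion gene Epcam averaged 11.39 ± 0.13 log2 in treated and 11.82 ± 0.14 log2 in control rats, and the lipoprotein lipase gene Lpl, high in fat cells, averaged 12.15 ± 0.25 log2 in treated and 11.58 ± 0.27 log2 in control rats (SD, n = 12 each). Fewer cells of a type and less RNA per cell cannot be told apart in such whole-gland samples.

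The leading comparison asked whether the route differed between treated and control glands. In individual rats 7 of the 8 probe sets were higher in treated rats and 1 was lower. Slc25a1, Acly, Acss2, Acaca and Fasn rose, between 1.57-fold and 2.75-fold by probe set, and Acacb fell. With limma and Benjamini-Hochberg adjustment over all probe sets, all 8 passed an adjusted p of 0.05, where 18.1% of all probe sets passed, 8.46% higher and 9.59% lower. Ordered by the size of the rise among 15866 probe sets, Acss2 stood at place 13, Fasn at 32 and 160, Acly at 41, Acaca at 50 and 53 and Slc25a1 at 56. Acacb stood at place 238 among the falls.

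Slc25a1, the carrier that exchanges mitochondrial citrate for cytosolic malate, had values of 10.54 (lowest), 11.405 (median) and 11.84 (highest) log2 in treated rats, against 9.83, 10.235 and 10.88 log2 in control rats. Of the 12 treated rats 9 lay above the highest control rat, and all 12 above the control mean. The means were 11.29 ± 0.45 log2 in treated and 10.30 ± 0.31 log2 in control rats (SD, n = 12 each). The difference was 0.99 ± 0.15 log2 (SE; 95% interval 0.69 to 1.30), or 1.99-fold, with an adjusted p of 3.4e-05.

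Acly, which splits exported citrate, had values of 12.06 (lowest), 12.70 (median) and 12.97 (highest) log2 in treated rats, against 10.85, 11.315 and 12.07 log2 in control rats. The groups nearly separated, with 11 of 12 treated rats above every control rat and treated rat 6, at 12.06 log2, just under the highest. It averaged 12.56 ± 0.32 log2 in treated and 11.43 ± 0.47 log2 in control rats (SD, n = 12 each). The rise was 1.13 ± 0.15 log2 (SE; 95% interval 0.82 to 1.45), or 2.19-fold, with an adjusted p of 1.1e-05.

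Acss2, which makes acetyl-CoA from acetate in the cytosol and nucleus, had the largest estimated rise of the 8 probe sets. Next were Fasn 1367707_at, at 1.21 log2, and Acly, at 1.13 log2. The margin over Acly had an interval that held 0, and the margin over Fasn 1367707_at was not tested. Values of Acss2 were 10.42 (lowest), 11.305 (median) and 11.95 (highest) log2 in treated rats, against 8.92, 9.725 and 10.81 log2 in control rats. Treated rats 3 and 9, at 10.42 and 10.43 log2, lay within the range of the control rats, and the other 10 lay above it. The means were 11.26 ± 0.50 log2 in treated and 9.80 ± 0.69 log2 in control rats (SD, n = 12 each). The rise was 1.46 ± 0.23 log2 (SE; 95% interval 0.98 to 1.93), or 2.75-fold, with an adjusted p of 6.1e-05.

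Acaca encodes the cytosolic carboxylase whose malonyl-CoA feeds fatty acid synthase. Its probe set 1370893_at had values of 11.44 (lowest), 12.105 (median) and 12.51 (highest) log2 in treated rats, against 10.22, 11.015 and 11.81 log2 in control rats. Its other probe set, 1387538_at, had values of 7.21, 7.89 and 8.83 log2 in treated rats, against 6.78, 6.915 and 7.35 log2 in control rats. In these probe sets 9 and 11 of 12 treated rats lay above every control rat. The rises were 1.04 ± 0.17 log2 (SE; adjusted p = 7.6e-05) and 1.01 ± 0.14 log2 (SE; adjusted p = 1.1e-05). Within arrays the rises of the 2 probe sets differed by 0.03 log2, with a 95% interval of -0.33 to 0.39.

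Fasn encodes the enzyme that completes palmitate. Its probe set 1367707_at had values of 12.38 (lowest), 13.23 (median) and 13.56 (highest) log2 in treated rats, against 11.05, 11.83 and 12.68 log2 in control rats. Probe set 1367708_a_at had values of 12.94, 13.345 and 13.58 log2 in treated rats, against 12.14, 12.61 and 13.20 log2 in control rats. Of the 12 treated rats 10 and 8 lay above every control rat in these probe sets. The rises were 1.21 ± 0.18 log2 (SE; adjusted p = 2.3e-05), or 2.31-fold, and 0.65 ± 0.11 log2 (SE; adjusted p = 8.4e-05), or 1.57-fold. Within arrays they differed by 0.56 log2 (95% interval 0.38 to 0.73), so the size of the rise of Fasn depended on the probe set. The highest value of any probe set on any array was 14.08 log2, and whether the signal of Fasn neared a ceiling was not tested.

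Acacb encodes the carboxylase of the outer mitochondrial membrane, whose malonyl-CoA is known to restrain the entry of fatty acids into mitochondria through Cpt1. It had values of 5.53 (lowest), 5.81 (median) and 6.11 (highest) log2 in treated rats, against 5.75, 6.15 and 6.77 log2 in control rats. The groups overlapped, with 4 of 12 treated rats below every control rat and all 12 below the control mean. The means were 5.80 ± 0.17 log2 in treated and 6.15 ± 0.29 log2 in control rats (SD, n = 12 each). The fall was -0.35 ± 0.09 log2 (SE; 95% interval -0.54 to -0.16), or 0.784-fold, with an adjusted p of 0.0076. These are low values on arrays whose values ran from 4.12 to 14.08 log2, and no detection call was used here.

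**Figure D1:**
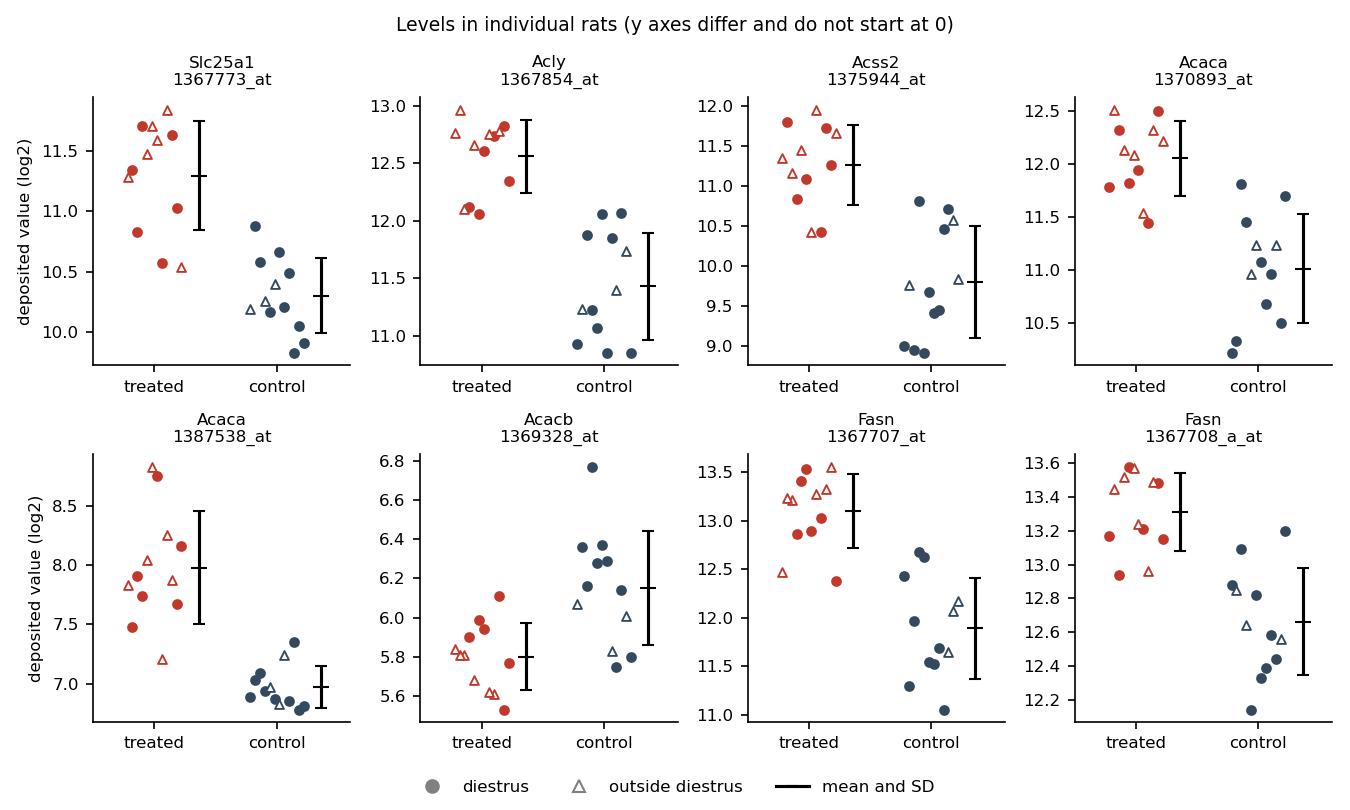
Deposited log2 value of each of the 8 probe sets (panels; vertical axes differ and do not start at 0) in each treated and control rat, with filled circles for diestrus, open triangles for other stages, and bars for the mean and SD of 12 rats. Treated rats sit higher in 7 panels and lower in the panel of Acacb, and the groups overlap in every panel.

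The groups overlapped in each of the 8 probe sets, and 0.384% of all probe sets had every treated rat above every control rat while 0.139% had every treated rat below. The treated rats within the control range were often the same ones. With each gene taken by its probe set with the highest mean, the rats were ordered in Slc25a1, Acly, Acss2, Acaca and Fasn. Treated rats 3 and 9 were among the lowest 3 of their group in all 5 genes, and treated rats 7 and 11 among the highest 3. Among control rats, 6 was the lowest in all 5 genes, tied with rat 11 in Acly, and rats 5 and 14 were among the highest 3 in all 5. Rat 3 was outside diestrus and rat 9 in diestrus, and rat 7 in diestrus and rat 11 in estrus, so each extreme of the treated group held both stages. In the control group all these extreme rats were in diestrus. The other probe set of Acaca, 1387538_at, gave another order. There treated rat 9, at 7.74 log2, lay above rats 6 and 8, at 7.48 and 7.67 log2. Treated rat 11, at 7.87 log2, lay under the treated median of 7.89 log2. Control rat 15 was the lowest of its group there, at 6.78 log2, with rat 6 at 6.87 log2 and rat 5 at 6.94 log2.

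The promoters are shown because 3 of these genes rose while Acacb fell. The sequences run from 250 bases before to 50 bases after an annotated start and are credited to RefSeq on the rat assembly GRCr8. For Slc25a1 and Acacb this start is the outer end of the annotated gene. For Acss2 and Acly it lies inside the gene, which spans chr3:164464124-164507607 and chr10:85912402-85964605. Other starts were not searched. Capitals mark CCAAT boxes and GC boxes on either strand, which read ATTGG and CCGCCC when they lie on the opposite strand. They lie at chr3:164464453-164464752 on the plus strand for Acss2, chr10:85963582-85963881 on the minus strand for Acly, chr11:96559804-96560103 on the plus strand for Slc25a1 and chr12:48138165-48138464 on the minus strand for Acacb.
Acss2: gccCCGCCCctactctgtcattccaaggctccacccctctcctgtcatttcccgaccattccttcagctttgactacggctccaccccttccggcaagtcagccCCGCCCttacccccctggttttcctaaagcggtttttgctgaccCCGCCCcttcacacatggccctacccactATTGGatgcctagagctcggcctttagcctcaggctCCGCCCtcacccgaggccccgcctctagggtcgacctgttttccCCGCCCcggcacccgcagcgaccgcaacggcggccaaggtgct
Acly: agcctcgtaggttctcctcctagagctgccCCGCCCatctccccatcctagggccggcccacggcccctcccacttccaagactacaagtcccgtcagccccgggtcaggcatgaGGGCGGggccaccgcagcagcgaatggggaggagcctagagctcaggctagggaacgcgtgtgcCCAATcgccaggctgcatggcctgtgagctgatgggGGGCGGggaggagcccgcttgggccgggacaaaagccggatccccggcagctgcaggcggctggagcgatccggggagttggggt
Slc25a1: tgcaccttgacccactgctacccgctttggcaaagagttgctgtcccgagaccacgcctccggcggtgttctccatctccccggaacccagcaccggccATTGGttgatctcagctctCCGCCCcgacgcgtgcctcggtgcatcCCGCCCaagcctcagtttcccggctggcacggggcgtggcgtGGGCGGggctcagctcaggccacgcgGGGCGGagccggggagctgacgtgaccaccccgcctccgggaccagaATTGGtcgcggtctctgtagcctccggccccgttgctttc
Acacb: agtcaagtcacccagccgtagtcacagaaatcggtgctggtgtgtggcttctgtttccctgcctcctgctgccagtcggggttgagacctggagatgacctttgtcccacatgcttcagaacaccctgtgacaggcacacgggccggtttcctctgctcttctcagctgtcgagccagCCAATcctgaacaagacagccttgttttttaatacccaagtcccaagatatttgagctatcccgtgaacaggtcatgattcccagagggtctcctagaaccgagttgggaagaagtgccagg

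The CCAAT box (CCAAT) occurred in all 4 promoters, and in 37.5% of 33469 promoters of the same length. Its first base lay at -73 in Acss2, -71 in Acly and -72 in Acacb, counted from the start site, and at -151 and 11 in Slc25a1. The GC box (GGGCGG) occurred 5 times in Acss2, 4 times in Slc25a1 and 3 times in Acly, and in 33.1% of all promoters, while no match lay in the window of Acacb. GC content was 64.0% for Acss2, 69.0% for Acly, 68.7% for Slc25a1 and 53.7% for Acacb. None of the 4 windows held a form of the sterol regulatory element (TCACNCCAC, in 1.12% of all promoters), the E-box (CACGTG, 6.42%), a pair of E-boxes with 5 bases between them (0.003%), or direct repeats of AGGTCA with 1 base (0.0538%) or 4 bases (0.006%) between the copies. All were searched on both strands and no 2 marked motifs overlapped. These letters describe the windows, which for Acss2 and Acly leave out the outer end of the gene, and they do not show what binds there. With 3 windows against 1, a relation of motifs to the direction of change was not tested.

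The changes of the genes were also compared with each other within arrays, as the treated minus control difference of the log2 ratio of their probe sets, using for each gene the probe set with the highest mean. Of 15 pairs of genes, 11 differed with a 95% interval that excluded 0. Acss2 rose more than Slc25a1 by 0.47 log2 (0.16 to 0.78), than Acaca by 0.42 log2 (0.23 to 0.61) and than Fasn by 0.81 log2 (0.48 to 1.13). Its rise exceeded that of Acly by 0.32 log2, with an interval of -0.01 to 0.66 that held 0. The rises of Acly and Slc25a1 differed by 0.14 log2 (-0.04 to 0.32), those of Acaca and Slc25a1 by 0.05 log2 (-0.14 to 0.23) and those of Acly and Acaca by 0.10 log2 (-0.12 to 0.31). These intervals bound the differences and do not show that the 3 genes rose alike.

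The 2 carboxylases moved apart. The change of Acaca exceeded that of Acacb by 1.39 log2, with an interval of 0.98 to 1.79, which is a 2.62-fold shift of their ratio within arrays. For Fasn, 1367708_a_at has the higher mean, and with it Slc25a1, Acly and Acaca rose more than Fasn, by 0.34 log2 (0.18 to 0.50), 0.48 log2 (0.31 to 0.66) and 0.38 log2 (0.23 to 0.54). With the mean of all probe sets of a gene, Slc25a1 exceeded Fasn by 0.06 log2 and Acaca exceeded Fasn by 0.09 log2, and neither interval excluded 0, which left 9 of 15 pairs. The margin over Fasn was then 0.20 log2 for Acly and 0.53 log2 for Acss2. Against Fasn 1367707_at alone, which rose by 1.21 log2, the rises of Slc25a1 (0.99 log2), Acly (1.13 log2) and Acaca 1370893_at (1.04 log2) were the smaller ones. That of Acss2 (1.46 log2) was larger, and none of these differences was tested.

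The pools measured the same rats again on other arrays. In pools of 2 the same 7 probe sets passed, all higher in treated pools, where 8.82% of all probe sets passed, 5.15% higher and 3.67% lower. In each of the 7 every treated pool lay above every control pool, which held for 2.89% of all probe sets, with 1.78% the other way. The rises ran from 0.59 ± 0.08 log2 (SE) for Fasn 1367708_a_at to 1.36 ± 0.18 log2 for Acss2, with Slc25a1 at 0.96 ± 0.14 log2, Acly at 0.99 ± 0.15 log2 and Acaca at 0.97 ± 0.12 log2 and 1.15 ± 0.16 log2. Acacb, at -0.32 ± 0.15 log2, did not pass (adjusted p = 0.232). It passed without control pool of 2 replicate 3, whose value was 5.62 log2, at -0.44 log2 (adjusted p = 0.0368).

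In pools of 3 all 8 probe sets passed, 7 higher and 1 lower, where 6.24% of all probe sets passed, 3.26% higher and 2.97% lower. In all 8 the groups did not overlap. For all probe sets that was so for 4.71% with treated pools higher and 7.25% with treated pools lower. Acss2 had 11.70, 11.47, 11.11 and 11 log2 in treated pools of 3, against 10.12, 10.20, 10.14 and 9.64 log2 in control pools of 3. The lowest treated pool lay above the highest control pool, and the rise was 1.29 ± 0.16 log2 (SE; adjusted p = 0.0011). Acacb had 5.85, 5.91, 5.81 and 5.80 log2 in treated pools of 3, against 6, 6.50, 6.36 and 6.22 log2 in control pools of 3, a fall of -0.43 ± 0.10 log2 (SE; adjusted p = 0.0219). The treated pools lay close together and the control pools were spread above them.

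Calls in pools of 3 for Acacb and for Fasn 1367708_a_at changed with single pools, as did the number over all probe sets. With every pool 990 of all probe sets passed. Without treated pool of 3 replicate 1, 2 or 3 the number was 678, 503 and 783. Without control pool of 3 replicate 1, 3 or 4 it was 706, 650 and 644. Acacb missed the threshold without treated pool of 3 replicate 2 (-0.45 log2, adjusted p = 0.0506), treated pool of 3 replicate 3 (-0.42 log2, 0.055) or control pool of 3 replicate 3 (-0.40 log2, 0.0656). Fasn 1367708_a_at, at 0.55 ± 0.13 log2 (SE; adjusted p = 0.0244) in the full set, missed it without treated pool of 3 replicate 1 (0.50 log2, adjusted p = 0.0643) or 2 (0.49 log2, 0.0863), or control pool of 3 replicate 1 (0.54 log2, 0.0666) or 4 (0.45 log2, 0.0601). Without the pools that hold rat 3 of either group, 6 of the 8 probe sets passed in pools of 3, among 460 of all probe sets. Acacb was then at -0.39 log2 (adjusted p = 0.133) and Fasn 1367708_a_at at 0.62 log2 (adjusted p = 0.0652). In pools of 2 without those that hold rat 3, 7 passed, among 1016 of all probe sets.

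The pools of 12 gave 1 mixture per group on 4 arrays, and their difference has no test. Acss2 had 11.42, 11.41, 11.42 and 11.43 log2 on the treated arrays, against 10.11, 10.10, 10.05 and 9.82 log2 on the control arrays, a difference of 1.40 log2. Acacb had 5.79, 5.81, 5.82 and 5.76 log2 on the treated arrays, against 6.20, 6.07, 6.40 and 6.48 log2 on the control arrays, a difference of -0.49 log2. Of the 8 probe sets 5 were at least 1 log2 higher in the treated mixture, where 0.372% of all probe sets were and 0.0315% were at least 1 log2 lower. Slc25a1 differed by 1.0 log2, Acaca by 1.05 and 1.13 log2 and Fasn 1367707_at by 1.15 log2, while Acly at 0.99 log2 and Fasn 1367708_a_at at 0.61 log2 stayed under that size. In all 8 the arrays of the groups did not overlap, as for 9.54% of all probe sets with treated arrays higher and 9.09% with treated arrays lower. Without control pool of 12 replicate 4 the differences were 1.0 log2 for Slc25a1, 0.95 log2 for Acly, 1.33 log2 for Acss2, 1.02 and 1.17 log2 for Acaca, -0.43 log2 for Acacb, and 1.11 and 0.63 log2 for Fasn. Again 5 reached 1 log2, while 3 did so under quantile normalization, where Acaca 1370893_at differed by 0.99 log2.

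**Figure D2:**
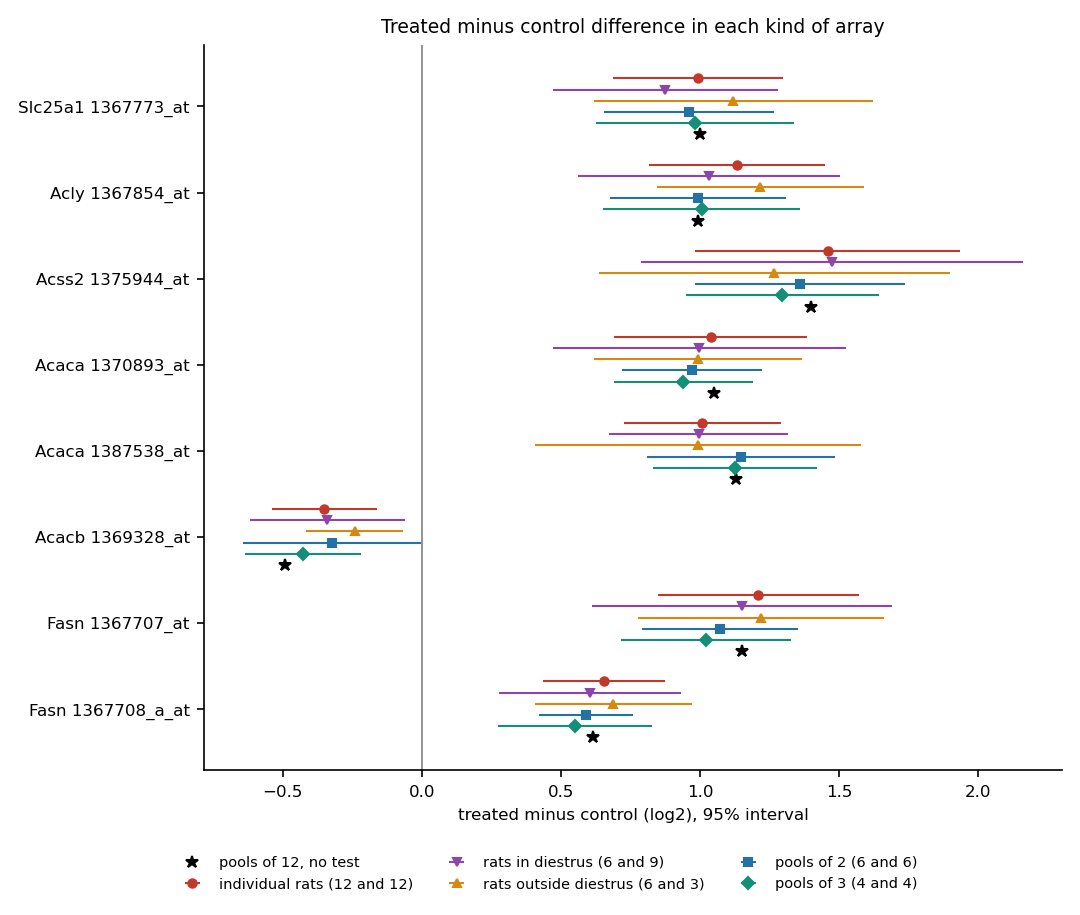
Treated minus control difference in log2 (horizontal axis) for each probe set (rows), with 95% intervals, in individual rats, rats in diestrus, rats outside diestrus, pools of 2 and pools of 3, and as stars without an interval in pools of 12. Differences of 7 probe sets lie between 0.55 and 1.48 log2 in every kind of array, and those of Acacb between -0.49 and -0.24 log2.

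Since stages were unequal between the groups, treatment was also compared within them. Among rats in diestrus 7 probe sets passed, all higher in treated rats, where 8.73% of all probe sets passed, 4.3% higher and 4.43% lower. Slc25a1 differed by 0.87 ± 0.19 log2 (SE), Acly by 1.03 ± 0.22 log2, Acss2 by 1.48 ± 0.32 log2, Acaca by 1.0 ± 0.25 and 0.99 ± 0.15 log2, and Fasn by 1.15 ± 0.25 and 0.60 ± 0.15 log2, with adjusted p between 0.0017 and 0.0226. Acacb, at -0.34 ± 0.13 log2, did not pass (adjusted p = 0.133). In Acaca 1387538_at all 6 treated rats in diestrus lay above the 9 control rats in diestrus, which held for 0.763% of all probe sets, with 0.706% the other way. Without treated rat 4 or treated rat 7, Acaca 1370893_at (0.93 and 0.89 log2, adjusted p = 0.054 and 0.0593) and Fasn 1367708_a_at (0.56 and 0.54 log2, adjusted p = 0.0619 and 0.0676) missed the threshold. The number over all probe sets also dropped there, to 913 and 818, against 1385 with every rat.

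Outside diestrus 5 probe sets passed in 6 treated and 3 control rats, where 1.48% of all probe sets passed, 1.2% higher and 0.284% lower. These were Slc25a1 at 1.12 ± 0.23 log2 (SE), Acly at 1.22 ± 0.17 log2, Acaca 1370893_at at 0.99 ± 0.17 log2 and Fasn at 1.22 ± 0.20 and 0.69 ± 0.13 log2. In these 5 all 6 treated rats lay above the 3 control rats, which held for 3.58% of all probe sets, with 2.92% the other way. Acss2 at 1.27 ± 0.29 log2 (adjusted p = 0.0596), Acaca 1387538_at at 0.99 ± 0.27 log2 (adjusted p = 0.0991) and Acacb at -0.24 ± 0.08 log2 (adjusted p = 0.179) did not pass. The number of calls moved with single rats, over all probe sets as well. None of the 8 passed without treated rat 2, treated rat 12, control rat 3 or control rat 10, where 11, 0, 0 and 24 of all probe sets passed, against 235 with every rat. Without treated rat 10 or 14, 1 of the 8 passed (37 and 45 of all probe sets), without treated rat 11 or control rat 8, 3 passed (100 and 118), and without treated rat 3, 7 passed (583). Over the same omissions the differences of all 8 kept their sign. They ran from 1.03 to 1.29 log2 for Slc25a1, 1.10 to 1.36 log2 for Acly and 1.12 to 1.525 log2 for Acss2. Acaca ran from 0.90 to 1.11 log2 (1370893_at) and 0.83 to 1.15 log2 (1387538_at). Fasn ran from 1.06 to 1.36 log2 (1367707_at) and 0.63 to 0.77 log2 (1367708_a_at), and Acacb from -0.31 to -0.19 log2.

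The stages themselves were compared with treatment as a covariate, and 0 of the 8 passed, as did 0 of all probe sets (0.0%) by limma, while 581 had an unadjusted p under 0.05. Rats outside diestrus minus rats in diestrus ranged from -0.19 ± 0.09 log2 (SE; 95% interval -0.38 to 0.0044) for Acacb to 0.23 ± 0.25 log2 (95% interval -0.28 to 0.74) for Acss2. The treatment difference itself was compared between stages by an interaction term, with 0 of the 8 and 0 of all probe sets (0.0%) past the threshold and 322 at an unadjusted p under 0.05. The interaction ranged from -0.21 ± 0.51 log2 (SE) for Acss2 to 0.25 ± 0.33 log2 for Slc25a1, and its intervals reached from -1.26 to 0.92 log2 over these genes. With stage as a covariate in all 24 rats, all 8 probe sets passed, among 2480 of all probe sets, with Acss2 at 1.40 log2 and Acacb at -0.30 log2.

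Rats of a group differed from each other far more than repeat arrays of the same target did. Each gland was made into labelled target of its own, and the part of that step in the spread between rats was not tested. For Slc25a1, Acly, Acss2, Acaca and Fasn the SD between rats, pooled over both groups, was 3.43 to 7.35 times the SD between repeat arrays, against a median of 1.19 over all probe sets, and 3.55 to 8.17 times without control pool of 12 replicate 4, against 1.29. For Acacb the ratio was 2.09, and 2.51 without that array. Acss2 had SDs of 0.50 log2 between treated and 0.69 log2 between control rats, and 0.113 log2 between repeat arrays. Acaca 1387538_at varied more between treated rats, with an SD of 0.473 log2 against 0.178 log2 between control rats, while its other probe set had 0.352 log2 in treated and 0.511 log2 in control rats. The difference of these spreads was not tested.

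Within each group, Slc25a1, Acly, Acss2, Acaca and Fasn went up and down together from rat to rat. Each gene was taken by its probe set with the highest mean. The relation of each pair of genes was tested in treated rats and in control rats separately, since the groups form 2 clusters, with 30 relations in all. The 10 pairs of these 5 genes passed in both groups, with Pearson's r of 0.832 to 0.969 in treated rats and 0.741 to 0.970 in control rats (permutation test, two-sided, adjusted p at most 0.0016 and 0.0127). Spearman's rho ran from 0.825 to 0.974 in treated rats and 0.799 to 0.986 in control rats (adjusted p at most 0.0023 and 0.0041). Acaca and Fasn gave r = 0.965 and rho = 0.946 in treated rats and r = 0.970 and rho = 0.986 in control rats, each with a raw p of 1e-05, the smallest that 100000 permutations can give. Without the 2 rats farthest from the median of the gene on the x axis, r over the 10 pairs was 0.730 to 0.943 in treated and 0.607 to 0.953 in control rats. The 2 probe sets of Acaca followed each other less, at r = 0.624 in treated and 0.407 in control rats. The values for Acaca above are those of 1370893_at. With the mean of all probe sets of each gene, the 10 pairs passed in both groups. Their r was then 0.788 to 0.960 in treated and 0.741 to 0.955 in control rats.

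Acacb did not follow the other 5. Its r with them ran from -0.0814 to 0.174 in treated rats and from -0.111 to 0.109 in control rats, and 0 of 10 relations passed (permutation test, two-sided, smallest adjusted p = 0.839). Its rho ran from -0.154 to 0.211 in treated rats and from -0.249 to 0.007 in control rats. In control rats, leaving out 2 rats moved the r of Acacb with Slc25a1 to -0.862, with Acss2 to -0.674 and with Acly to -0.440. With Acaca and Fasn it was then 0.0434 and -0.161. Several of the values near 0 in control rats thus rest on the rats left out. All values of a rat come from 1 array. With a technical score of each array fitted within the group (its place along the direction in which repeat arrays differed most), all 20 relations among the other 5 genes passed.

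**Figure D3:**
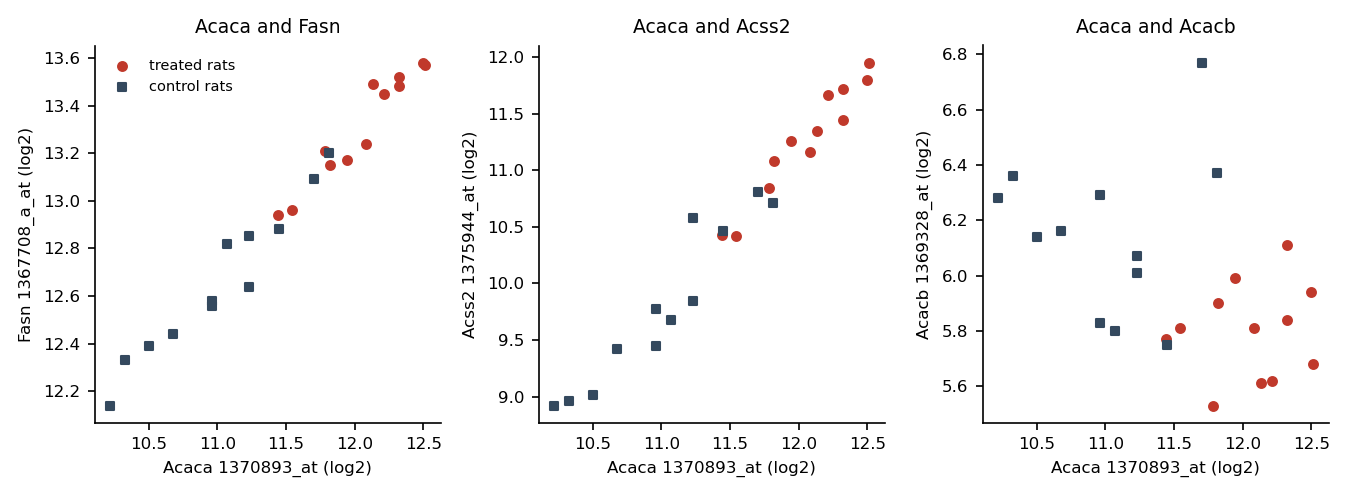
Log2 values of Fasn 1367708_a_at, Acss2 and Acacb (vertical axes) against Acaca 1370893_at (horizontal axis) in individual treated rats (circles) and control rats (squares). Fasn and Acss2 follow Acaca within both groups, while Acacb had r = 0.153 with Acaca in treated rats and 0.0759 in control rats.

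The rats' patterns were matched against the other 10405 named genes, as deviations from the group mean over 24 rats, to name the 3 most alike for each gene. For Slc25a1 these were Slc2a4 (r = 0.940), the insulin-responsive glucose transporter, Tkt (0.926), of the pentose phosphate pathway, and Slc25a10 (0.924), the dicarboxylate carrier. For Acly they were Dgat2 (0.931), which completes triglycerides, Gpd1 (0.901), which makes glycerol phosphate, and the elongase Elovl6 (0.873). For Acss2 they were Mtarc1 (0.956), Agpat2 (0.949), an enzyme of triglyceride assembly, and Thrsp (0.945). For Acaca they were Mpc1 (0.947), the mitochondrial pyruvate carrier, Me1 (0.947), the malic enzyme, and the glutamine transporter Slc1a5 (0.936). For Fasn they were Me1 (0.936), Elovl6 (0.921) and Agpat2 (0.918). Acacb had lower likeness, with Cracr2b (0.792), Vps33a (0.786) and F11r (0.782). These values describe the 24 rats, whose genes share arrays.

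The steps on both sides of the route were described by lists. Of 7 measured genes of mitochondrial citrate supply, all 7 were higher in treated rats, with a median difference of 1.24 log2, where 9.81% of all named genes were higher and 10.4% lower, with a median of 0.00. Mpc1 and Mpc2, the pyruvate carrier, rose by 1.46 ± 0.16 and 1.24 ± 0.13 log2 (SE), and Pdhb and Pdhx of pyruvate dehydrogenase rose by 1.45 ± 0.15 and 1.30 ± 0.15 log2. Of 9 genes that return carbon to mitochondria or supply NADPH 7 were higher and 0 lower, with a median of 0.58 log2. Me1, which turns malate into pyruvate and NADPH, averaged 12.22 ± 0.45 log2 in treated and 10.30 ± 0.75 log2 in control rats (SD, n = 12 each), a rise of 1.92 ± 0.24 log2 (SE). The dicarboxylate carrier Slc25a10 rose by 1.22 ± 0.17 log2, Taldo1 by 0.58 ± 0.09 log2 and Mdh2 by 0.51 ± 0.07 log2. Idh1 and Slc25a11, at 0.02 and -0.03 log2, did not pass and were named after their values were seen.

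Of 10 genes that act on acetyl-CoA carboxylase 2 were higher and 2 lower, with a median of 0.08 log2. Over all named genes 9.81% were higher and 10.4% lower. Thrsp, a lipogenic protein of fat cells, rose by 0.86 ± 0.10 log2 (SE), and Mlycd, which breaks malonyl-CoA down, by 0.27 ± 0.06 log2. Of 6 measured subunits of AMP-activated protein kinase, which phosphorylates and restrains both carboxylases, 2 were lower, Prkaa1 at -0.27 ± 0.08 log2 and Prkab1 at -0.28 ± 0.06 log2. Prkaa2 at 0.24 log2, Prkab2 at 0.06 log2, Prkag1 at -0.03 log2 and Prkag2 at 0.09 log2 did not pass and were named after their values were seen. Of 11 genes that use malonyl-CoA or palmitate 6 were higher and 1 lower, with a median of 0.13 log2. The elongase Elovl6 averaged 11.69 ± 0.71 log2 in treated and 9.50 ± 0.83 log2 in control rats (SD, n = 12 each), a rise of 2.18 ± 0.29 log2 (SE). Elovl5 rose by 0.74 ± 0.10 log2, the desaturase Scd by 0.51 ± 0.08 log2 and Cpt1b by 0.52 ± 0.09 log2. Cpt1a, another form of the transferase that malonyl-CoA inhibits and named after its value was seen, was the gene that fell, by 0.75 ± 0.19 log2.

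Of 12 lipogenic regulators 2 were higher (16.7%) and 0 lower, with a median of -0.02 log2. Of all named genes 9.81% were higher and 10.4% lower. Mlxipl, the carbohydrate-responsive factor ChREBP, rose by 0.89 ± 0.12 log2 (SE), and Pparg, a receptor that pairs with the retinoid X receptor and drives fat cell differentiation, by 0.76 ± 0.14 log2. Srebf1, which encodes the sterol regulatory factor known to act on these genes, averaged 11.04 ± 0.37 log2 in treated and 11.17 ± 0.31 log2 in control rats (SD, n = 12 each), a difference of -0.13 ± 0.13 log2 (SE; adjusted p = 0.587). Srebf1 was named after its value was seen. Insig1 at 0.62 ± 0.24 log2 (adjusted p = 0.0786) and Mlx at 0.14 ± 0.06 log2 (adjusted p = 0.0862) did not pass.

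Of 7 other genes that make, use or carry acetyl-CoA 4 were higher and 1 lower, with a median of 0.17 log2. For all named genes the shares were 9.81% and 10.4%. The mitochondrial relatives of Acss2 went apart, with Acss1 lower, at -0.52 ± 0.09 log2 (SE), and Acss3, at 0.72 ± 0.15 log2, higher. Acat1 rose by 0.46 ± 0.06 log2 and Crat by 0.17 ± 0.04 log2. Of 6 genes of the separate mitochondrial fatty acid synthesis 4 were higher and 0 lower, with a median of 0.20 log2, among them Mecr at 0.73 ± 0.09 log2, Ndufab1 at 0.51 ± 0.08 log2, Cbr4 at 0.23 ± 0.08 log2 and Acsf3 at 0.16 ± 0.03 log2. Of 4 other biotin carboxylase subunits 2 were higher, Pcca at 0.81 ± 0.11 log2 and Mccc2 at 0.44 ± 0.12 log2, while Pccb at 0.10 ± 0.04 log2 and Mccc1 at 0.22 ± 0.08 log2 did not pass, and the median was 0.33 log2.

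**Figure D4:**
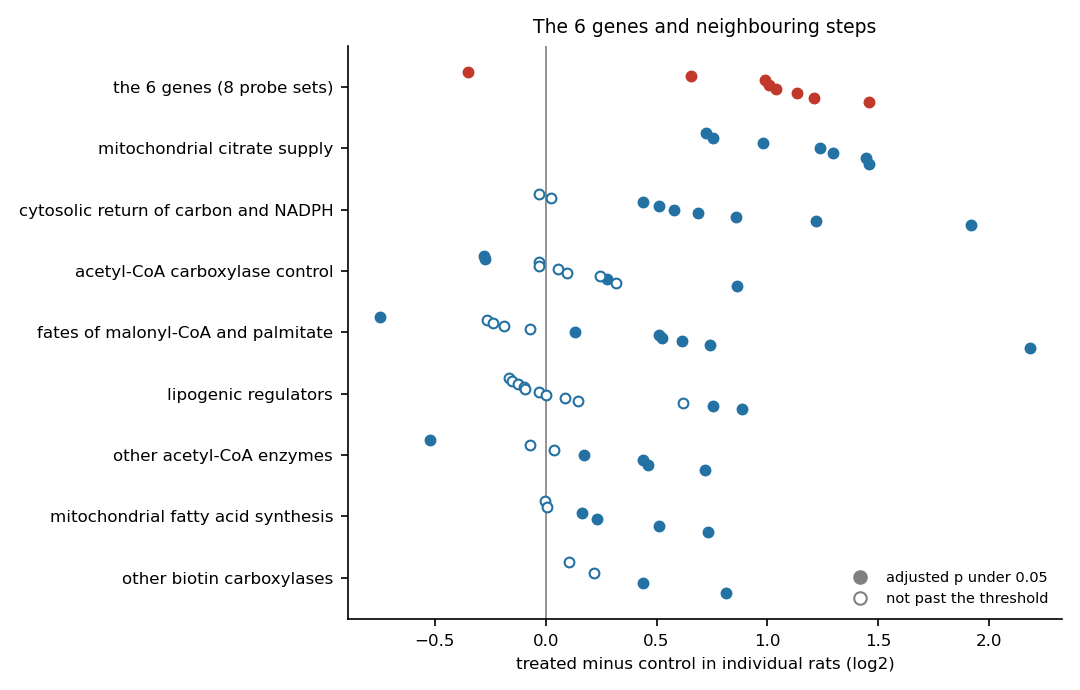
Treated minus control difference in log2 (horizontal axis) in individual rats for the 8 probe sets of the 6 genes (red) and for the genes of each neighbouring list (blue), filled where the adjusted p is under 0.05. The list of mitochondrial citrate supply lies wholly to the right of 0, and the lipogenic regulators spread around 0.

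Markers of cell types moved with treatment as well. Of 10 fat cell markers 7 were higher and 1 lower in treated rats, where 9.81% of all named genes were higher and 10.4% lower. Lep rose by 1.01 ± 0.11 log2 (SE), Aqp7 by 1.10 ± 0.14 log2 and Lpl by 0.57 ± 0.10 log2, while Cfd fell by 0.69 ± 0.09 log2. The summed level of the 10 fat cell markers ran from 14.31 to 15.18 log2 in treated and from 14.41 to 15.13 log2 in control rats. Its medians were 14.91 and 14.66 log2. In a sum of linear values the brightest genes weigh most. Here these were Cfd, at 12.59 log2 in treated and 13.28 log2 in control rats, and Fabp4, at 13.04 and 12.73 log2. Of 12 luminal epithelial markers 0 were higher and 9 lower, with summed levels of 13.27 to 13.76 log2 in treated and 13.63 to 14.11 log2 in control rats. Of 8 basal markers 1 was higher and 4 lower (12.86 to 13.46 log2 in treated, 13.25 to 13.88 log2 in control rats), and of 9 milk genes 0 were higher and 4 lower (14.27 to 15.38 log2 in treated, 14.71 to 15.63 log2 in control rats). Brown fat, muscle, lymphocyte and liver lists had 0 of 6, 0 of 9, 0 of 5 and 0 of 6 genes past the threshold. Of macrophage markers 2 of 4 were higher and 1 lower, of fibroblast markers 1 of 8 higher, and of endothelial markers 1 of 6 lower.

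The sums of fat cell and luminal markers, in which the brightest genes weigh most, were set against the 6 genes within each group. This gave 24 relations, chosen after the values were seen. Of these 8 passed: 4 with the fat cell sum in treated rats (Slc25a1, Acss2, Acaca and Fasn), 2 with it in control rats (Acss2 and Acaca) and 2 with the luminal sum in treated rats (Acss2 and Acaca). The fat cell sum rose with Acss2, at r = 0.901 and rho = 0.874 in treated rats (permutation test, two-sided, p = 0.00012, adjusted p = 0.00096; rho p = 0.00046, adjusted p = 0.0055) and r = 0.852 and rho = 0.783 in control rats (p = 0.00011, adjusted p = 0.00096; rho p = 0.0034, adjusted p = 0.0164). With Acaca it gave r = 0.911 and rho = 0.883 in treated rats and r = 0.725 and rho = 0.747 in control rats (permutation test, p = 3e-05 and 0.0072, adjusted p = 0.00072 and 0.0288; rho p = 0.00038 and 0.0068, adjusted p = 0.0055 and 0.0271). Without the 2 rats farthest from the median, r was 0.800 and 0.803 for Acss2 and 0.812 and 0.759 for Acaca, in treated and in control rats. With Acacb the relation did not pass, at r = 0.322 and 0.312 (permutation test, adjusted p = 0.385 each). Its relation with Slc25a1 in treated rats (r = 0.712, permutation test, adjusted p = 0.03) gave r = 0.366 without 2 rats, and so rests on them. The luminal sum fell as Acss2 rose in treated rats (r = -0.776, rho = -0.804, permutation test, p = 0.0032 and 0.0024, adjusted p = 0.0153 and 0.0144), with r = -0.774 without 2 rats. In control rats that relation did not pass (r = -0.451, rho = -0.510, permutation test, adjusted p = 0.213 and 0.15). The part of cell makeup in the treatment differences was not tested.

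Each pool was compared with its own rats, whose linear values were averaged and put back on the log2 scale. Over the 8 probe sets the median absolute difference was 0.03 to 0.13 log2 in 12 pools of 2 and 0.05 to 0.20 log2 in 8 pools of 3, against 0.0808 and 0.0889 log2 for the median over all probe sets. Acaca 1387538_at followed its rats least, with differences of -0.24 to 0.31 log2 in pools of 2 and -0.27 to 0.28 log2 in pools of 3. The smallest medians were those of Fasn 1367708_a_at in pools of 2 and of Slc25a1 in pools of 3. The pools of the 7 raised probe sets kept the order of treated over control glands that their rats had.

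**Figure D5:**
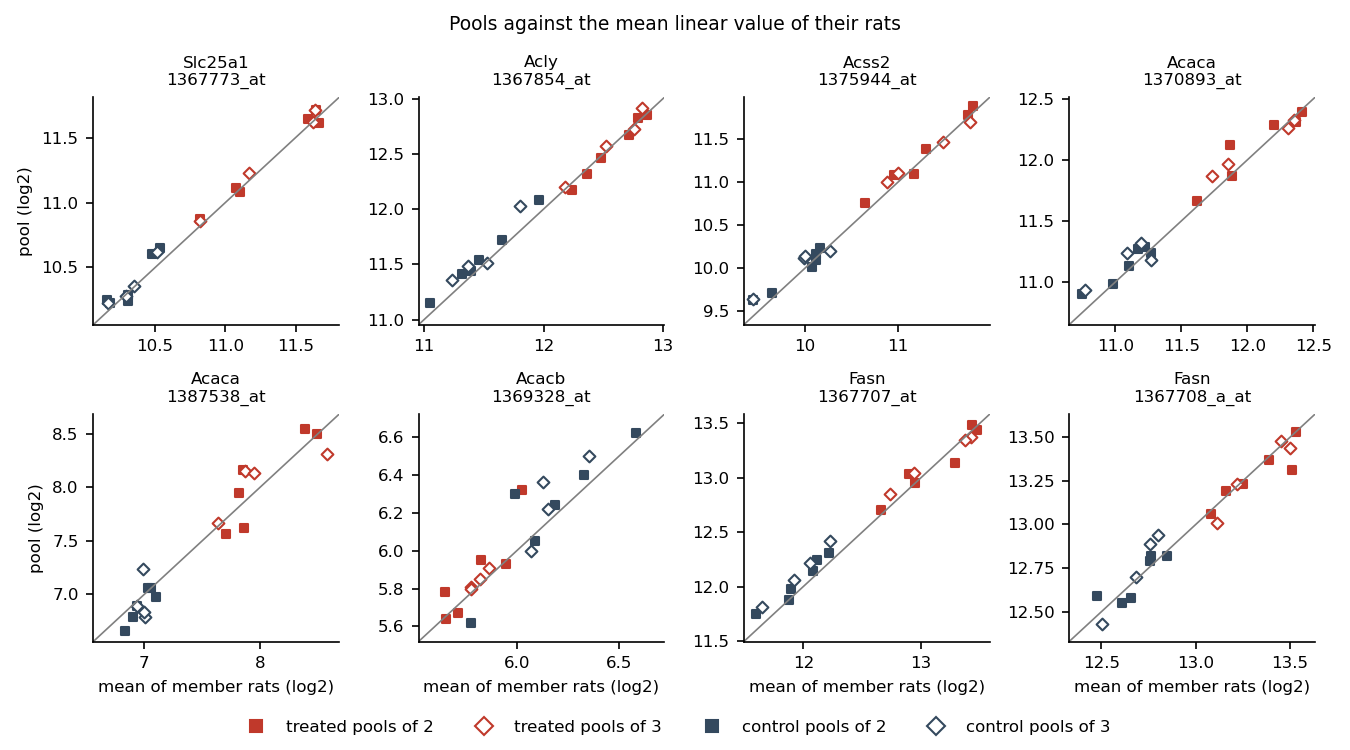
Log2 value of each pool (vertical axis) against its rats' linear values, averaged and then put on the log2 scale (horizontal axis), for each probe set, with squares for pools of 2, diamonds for pools of 3 and the line of equality. Points follow the line, most loosely for Acaca 1387538_at, and treated pools lie apart from control pools in every panel but that of Acacb.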

How the data were processed

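Expression was measured on 56 rat Affymetrix arrays. Per the labels' protocols, 5 µg of total RNA of each gland was made into labelled cRNA, and pools joined equal amounts of fragmented targets to 10 µg. The deposited values are 1 log2 number per probe set and array. The log2 unit was inferred from their range, 4.12 to 14.08. Values were used as deposited, and the software and normalization behind them is not given in the sources used here. Of 15923 probe sets 57 controls were left out. Symbols came from the platform annotation and were updated by Entrez ID to RefSeq names of GRCr8 for 12748 probe sets. A single symbol was held by 12783 probe sets and more than 1 by 312, while 2771 were absent from the annotation table and have no name here.

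Treatment, stage and their interaction were tested with limma's lmFit and eBayes over all 15866 probe sets, and called at a Benjamini-Hochberg adjusted p under 0.05, separately in individual rats, pools of 2 and pools of 3. The fit was run on simulated data with known changes for individual rats, pools of 2 and pools of 3. The simulated probe sets were drawn independently, so this did not cover effects shared by an array, nor the stage comparisons. Ratios within arrays had 95% intervals from the pooled variance. Relations between genes used 100000 permutations. A summed level is log2 of the summed linear values of a list, 1 probe set per gene (the highest mean over 24 rats). The named genes of each list were up to 4 with the smallest p, with the exceptions stated. List genes not on the array by symbol, such as Adipoq, Dlat and Pcx, were not used here. The technical axis is the main component of differences between repeat arrays, 57.3% of their variance. The source label of 3 arrays of each pool of 12 reads individual, and title and description were followed. The 6 genes, the lists and the tests were chosen with earlier results of these data known. Alternatives covered normalization, a dim filter, the prior, weights, covariates, a block by rat number and leaving out arrays. Tools were limma 3.58.1 in R 4.3.3, with scipy 1.17.1, pandas 2.3.3, numpy 2.4.6 and matplotlib 3.10.9 in Python 3.11.15.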

Additional observations from a re-analysis of the deposited data

Results flagged for a closer look

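In groups of 4 to 10 arrays, 72 sets of values were looked at for an array far from the others of its group, relative to their range, and 5 were found. Chance gives about 1 in 20. Treated rat 3 was the lowest of the 6 treated rats outside diestrus in Acly, at 12.10 log2 against 12.66 to 12.97 log2 in the other 5, and in Fasn 1367707_at, at 12.47 log2 against 13.22 to 13.56 log2. Treated pool of 12 replicate 2 was low in Slc25a1, at 11.24 log2 against 11.43 to 11.46 log2. Control pool of 12 replicate 4, the array that stood apart, was low in Fasn 1367707_at, at 11.92 log2 against 12.07 to 12.10 log2. Control pool of 3 replicate 4 was low in Acss2, at 9.64 log2 against 10.12 to 10.20 log2. No cause was tested.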

How the results depend on the processing

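In individual rats all 8 probe sets passed when any single rat was left out (8 to 8 passed, among 2520 to 3133 probe sets in all), and 8 passed under both other normalizations, another prior, array weights, stage or the technical score as a covariate, and the mean of the arrays of rat 3, among 2480 (stage) to 3692 (array weights) of all probe sets, against 2865. Without dim probe sets Acacb was not tested. Same-numbered rats correlated at -0.389 to 0.358 in their deviations, and over 0.1 in 5 of 10 numbers. Such values across genes cannot show whether the numbers pair the rats, and the main fit used no pairing. With rat number as a replicate block 8 probe sets passed among 2535, and 2589 without the block on the same rats, a comparison added after seeing the data. Only 1 of 10 rats correlated best with its own number. In pools of 3, 990 probe sets passed, 1561 with array weights, 460 without the pools that hold rat 3, and 503 to 1020 without single pools (503 without treated pool of 3 replicate 2, 650 and 644 without control pools of 3 replicates 3 and 4), of the 8 probe sets 6 to 8. In pools of 2 it was 956 to 1559, of the 8 7 to 8. Within diestrus 818 to 1602 passed without single rats (913 without treated rat 4, 818 without treated rat 7), of the 8 5 to 7. Outside diestrus 0 to 583 passed, of the 8 0 to 7. For stage 0 to 1 passed. Between pools of 12, 3 probe sets reached 1 log2 under quantile normalization against 5, and 4 to 6 when single arrays were left out, a step added after seeing the data except for control replicate 3. Signs turned where values were near 0: the correlation of Slc25a1 and Acacb in treated rats (-0.0609 with the technical score), that of Acacb and Fasn in treated rats (0.0638 with the mean of probe sets) and the interaction of Acaca 1370893_at (0.0074 under quantile normalization). Without single rats the stage difference of Acaca 1387538_at ran from -0.0356 to 0.142, and the interaction from -0.36 to 0.05 for Acss2, -0.111 to 0.112 and -0.168 to 0.156 for Acaca, and -0.0872 to 0.212 for Fasn 1367707_at. The causes were not tested. The number of arrays limits the stage comparisons most, with 3 control rats outside diestrus.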
